A study of Mus musculus with 2 samples.

Results

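Bone morphogenetic protein (BMP) signaling was examined through 9 genes: the ligands Bmp2, Bmp4, Bmp5 and Bmp7, the receptors Bmpr1a and Bmpr2, and the extracellular antagonists and modulators Grem1, Nog and Bmper. They were taken by their gene name on the array, with earlier results of these data known, and all 9 were measured. The array held 30011 gene names after probes were matched to RefSeq. The arrays compared ureters of newborn (P0) wildtype mice of the NMRI strain that had been explanted and cultured for 18 h. The medium held either 10 µM cyclopamine, a plant alkaloid that blocks the hedgehog signal transducer SMO, or DMF at 1:1000 as control per the labels, whereas the methods of the study have cyclopamine dissolved in ethanol. The comparison asks which genes of the ureter depend on SHH signaling around birth. Replicate 1 set a cyclopamine pool of female ureters against a control pool of female ureters, and replicate 2 did the same for male ureters with the dyes swapped. The sex of the pools, the dyes and the replicate cannot be told apart. A source name in the labels gives IWP-2, an inhibitor of WNT secretion, while all other entries of the labels name cyclopamine, and the arrays were taken as such.

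BMP ligands are secreted dimers that bring together type I and type II serine/threonine kinase receptors. The type I receptor then phosphorylates SMAD proteins, which enter the nucleus with SMAD4 and switch on targets such as the Id genes, while secreted antagonists bind the ligands and keep them from their receptors. In the developing ureter, Bmp4 is expressed in the mesenchyme around the epithelium, where it is known as a target of epithelial SHH and as a factor for smooth muscle formation.

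The measurements came from 60-base probes, each spotted 4 times per array. The receptors and Bmp4 carry most of what follows, so the first 30 bases of their probes are shown in lower case, 5′ to 3′, with positions of the whole probe in build mm9. The array annotation gives no exon or UTR for them.

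Bmp4, bright probe, chr14:47003391-47003450, gene on the minus strand: caaccacctacacataccacacaaactgct

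Bmp4, dim probe, chr14:47003198-47003257, gene on the minus strand: gacaaatatatttataactacatattaaaa

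Bmpr1a, chr14:35224339-35224398, gene on the minus strand: gattcatcttgatatgtaacactaagtgta

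Bmpr2, chr1:59927276-59927335, gene on the plus strand: ggaggcactgccacgaccacagtgtctaaa

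Bmp4 was the only one of the 9 genes with a second probe. Its dim probe started 193 bases from the bright one, had a GC content of 15.0% against 38.3%, and was above background in 0 of 4 spots in every channel. It was therefore not tested, and everything below on Bmp4 rests on the bright probe.

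The treatment was checked on 7 SHH target genes. Gli1, a transcription factor that the pathway switches on, had log2 ratios of cyclopamine over control of -1.83 on replicate 1 and -2.09 on replicate 2, and Ptch1, the SHH receptor, of -1.13 and -1.49. With Hhip, Foxf1 and Foxl1, they were the 5 targets called lower by limma, a test over both arrays with Benjamini-Hochberg adjustment over 25975 probes. Between 64.8% and 70.0% of spots were above background per channel, but the signals of replicate 1 were larger, with a 75th percentile of control signals 5.32 times that of replicate 2. Signals are therefore compared only within an array. All 6 urothelial and all 6 smooth muscle markers listed for the ureter were detected. Of 6 nephron markers, 5 were too dim to test, Nphs1, Umod, Slc12a1 and Slc34a1 among them, while Six2, a marker of nephron progenitors, was detected, with control signals of 727 and 113 and log2 ratios of 0.09 and 0.52.

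Across the 9 genes, Bmp4 stood out as lower with cyclopamine on both arrays, by a similar amount each time. The filter for this comparison was a control signal over 100 and a ratio past 1.5-fold on both arrays with the same sign. It was passed by 1 of the 9 genes in the lower direction (Bmp4) and by 0 in the higher direction, where 0.63% of the 13661 genes with enough signal were lower and 0.212% were higher. Of the 9 genes, 7 had enough signal for this filter, and Grem1 and Nog did not. By limma, 0 of the 9 passed an adjusted p of 0.05 in either direction, against 0.77% of probes lower and 0.454% higher. At an unadjusted limma p under 0.05 there were 2 of the 9, Bmp4 (lower) and Bmpr2 (higher). Of all 25975 tested probes, 1161 were lower and 1279 higher at that unadjusted limit, so such a p alone does not set a gene apart.

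The signs on the 2 arrays did not point one way. Bmp4 and Nog were lower on both arrays, Bmp7 and Grem1 were higher on both, and the other 5 (Bmp2, Bmp5, Bmpr1a, Bmpr2 and Bmper) had opposite signs. Among the 19398 genes tested, 28.9% were lower on both, 28.6% were higher on both and 42.4% were opposite. The limma p-values rest on 2 pairs of pools, and their variance leans mostly on that of all tested probes (51.9 prior against 1 residual degree of freedom). A gene whose 2 ratios lay far apart, such as Bmpr2, could thus still have an unadjusted p under 0.05. In pooled whole ureters, fewer cells of a type and less RNA per cell cannot be told apart.

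**Figure D1:**
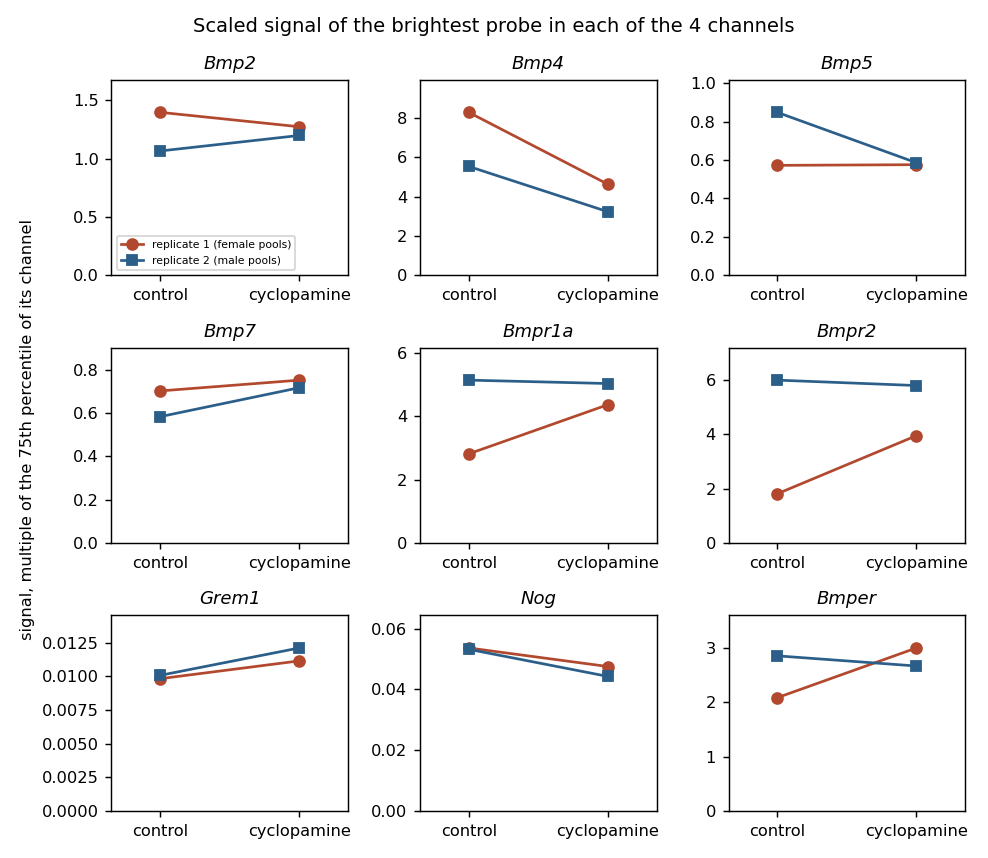
Signal of the brightest probe of each of the 9 genes in the control and cyclopamine channels (x axis), as a multiple of the 75th percentile of its channel (y axis, from 0, a scale of its own per gene). Circles are replicate 1 (female pools) and squares replicate 2 (male pools), each point 1 channel. Bmp4 slopes down on both arrays, while Bmpr1a, Bmpr2 and Bmper slope up on replicate 1 and slightly down on replicate 2.

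Bmp4, a ligand made by the ureteric mesenchyme, had a processed signal of 27630 without and 15523 with cyclopamine on replicate 1. On replicate 2 the signals were 3473 without and 2026 with it. Within each array the cyclopamine pool was thus clearly below the control pool. The fall corresponded to 1.78-fold on replicate 1 and 1.71-fold on replicate 2. The mean log2 ratio was -0.80 ± 0.04 (SD, n = 2), with a 95% interval by limma of -1.26 to -0.35 and a limma adjusted p of 0.0589. Bmp4 thus fell short of the limit of 0.05, and its 2 ratios lay close together, since 9.47% of tested genes differed less between the arrays.

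The 4 spots of the bright Bmp4 probe lay close together, from -0.86 to -0.81 on replicate 1 and from -0.78 to -0.77 on replicate 2. Spots are technical repeats of 1 pool, so their spread says how well the array read the pool and nothing on pools. Of all tested genes, 2.69% had a lower ratio than Bmp4 on replicate 1 and 1.58% on replicate 2, and 0.995% had a lower mean. On replicate 1 alone, where 8.64% of genes with enough signal were at least 1.5-fold lower, this placed Bmp4 near the edge of a broad distribution. On replicate 2, where 1.68% were, it lay farther out.

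The genes with the pair of ratios most like that of Bmp4, by Euclidean distance among the 13661 genes with enough signal, were Thy1, Npy and Selenom. Thy1, a surface glycoprotein of fibroblasts and neurons, had log2 ratios of -0.83 and -0.79, at a distance of 0.00877. Npy, a neuropeptide, had -0.82 and -0.84, and Selenom, a selenoprotein, had -0.85 and -0.71. The likeness rests on 2 values per gene, and 0 of these 3 genes were among the closest after the length trend described below was removed.

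Aldh1a2, a retinoic acid synthesizing enzyme used as the marker of lamina propria fibrocytes, was also lower on both arrays, with log2 ratios of -0.62 and -0.65 (limma adjusted p 0.218). The adipocyte markers Adipoq and Plin1 were lower on both arrays as well, with -0.86 and -0.65 for Adipoq and -0.48 and -1.18 for Plin1. Plin1 was dim on replicate 2, with signals of 17.9 (control) and 7.93 (cyclopamine). The 6 smooth muscle markers ran from -0.26 to 0.35 on replicate 1 and from -0.92 to -0.31 on replicate 2. The part of these cell types in the Bmp4 result was not tested.

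Bmp2, a ligand close to Bmp4 in sequence, had signals of 4660 (control) and 4273 (cyclopamine) on replicate 1 and of 669 and 752 on replicate 2. It was slightly lower on the first array and slightly higher on the second. The mean log2 ratio of 0.02 ± 0.21 (SD, n = 2) had a limma adjusted p of 0.985 and a 95% interval of -0.43 to 0.48. The interval leaves room for a change of either sign, so the data do not show that Bmp2 was unaffected.

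Bmp5, a ligand of the same subfamily as Bmp7, had signals of 1910 and 1933 on replicate 1, where both pools were level. On replicate 2 its signal was 532 in the control and 367 with cyclopamine. This was 1.45-fold lower, just short of the 1.5-fold limit, and 3.74% of tested genes had a lower ratio on that array. The 2 arrays thus gave different pictures, and the mean was -0.26 ± 0.39 (SD, n = 2; limma adjusted p 0.760).

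Bmp7, a ligand of epithelium and mesenchyme in the urinary tract, was higher on both arrays by small amounts. Its signals were 2342 (control) and 2524 (cyclopamine) on replicate 1 and 366 and 450 on replicate 2, for log2 ratios of 0.11 and 0.30. The mean of 0.20 ± 0.13 (SD, n = 2) had a limma adjusted p of 0.820. The 4 ligands therefore did not share a direction.

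**Figure D2:**
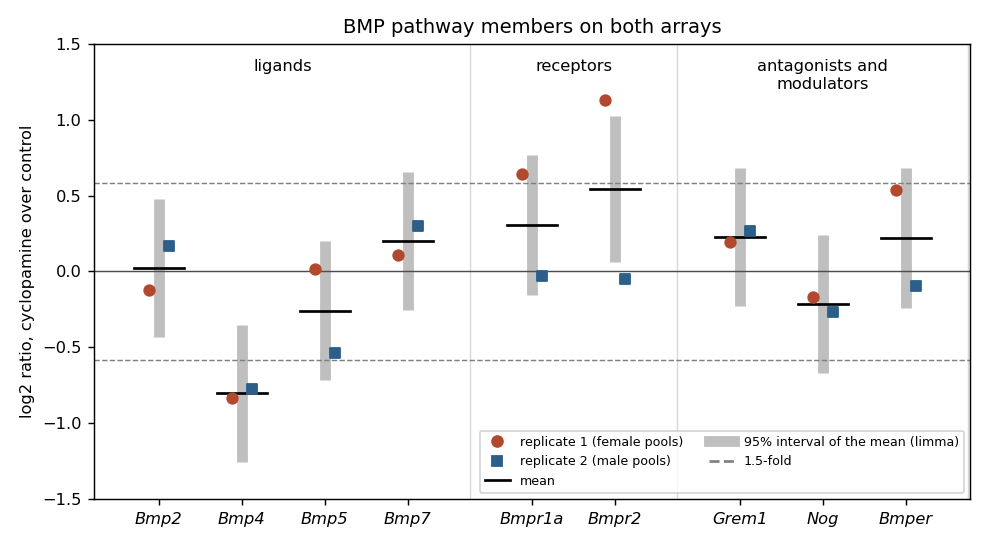
Log2 ratio of cyclopamine over control (y axis) for the 9 genes ordered by role (x axis), with circles for replicate 1 (female pools) and squares for replicate 2 (male pools). Black bars are means of the 2 arrays, grey bars the 95% interval of the mean by limma, and dashed lines 1.5-fold. Bmp4 alone lies past 1.5-fold on both arrays, and Bmpr2 shows the widest gap between the arrays.

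Both receptors were higher with cyclopamine on replicate 1 and level on replicate 2. Bmpr1a, the type I receptor also called ALK3, had signals of 9393 (control) and 14664 (cyclopamine) on replicate 1, and of 3228 and 3158 on replicate 2. Bmpr2, the type II receptor for BMPs, had 6049 and 13266 on replicate 1, and 3761 and 3634 on replicate 2. The female pools thus differed while the male pools nearly coincided.

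On the log2 scale Bmpr1a had ratios of 0.64 and -0.03 and Bmpr2 of 1.13 and -0.05. The means were 0.31 ± 0.48 for Bmpr1a (SD, n = 2; limma adjusted p 0.715) and 0.54 ± 0.84 for Bmpr2 (SD, n = 2; limma adjusted p 0.430). For both, the SD exceeded the mean. The spots again lay close together, from 1.11 to 1.14 for Bmpr2 on replicate 1, so the gap was between arrays and not within one. Of tested genes, 98.0% differed less between the 2 arrays than Bmpr2 did.

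Of the 9 genes, 2 (Bmpr1a and Bmpr2) were at least 1.5-fold higher on replicate 1, where 8.5% of genes were, and 0 on replicate 2, where 0.586% were. In the lower direction 1 gene (Bmp4) was past that fold on each array.

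On replicate 1 the ratio rose with the genomic length of the gene. Across tested genes, which share these libraries and are no replicates, the Spearman correlation was 0.44 for replicate 1 and 0.035 for replicate 2. With genes split into 4 length classes of equal size, the median log2 ratio on replicate 1 was -0.25 in the shortest class and 0.28 in the longest, which began at 52.6 kb. Of the 9 genes, 5 were in the longest class, namely Bmp5 (125 kb), Bmp7 (72.3 kb), Bmpr1a (92.3 kb), Bmpr2 (114 kb) and Bmper (262 kb), while Bmp4 (7.15 kb) and Nog (1.92 kb) were in the shortest.

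Seen against genes of its own length class, Bmpr2 remained high on replicate 1, above 98.7% of them, and Bmpr1a stood above 84.5%. Only 4.44% of genes in the shortest class were below Bmp4. With the fitted length trend subtracted on each array, Bmpr2 had ratios of 0.89 and -0.05 and Bmpr1a of 0.42 and -0.04, so the gap between the arrays narrowed and did not close. Bmp4 had -0.62 and -0.77 after this step, a mean of -0.69 with a limma adjusted p of 0.0431, under the limit.

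The listed endothelial markers Pecam1, Cdh5 and Kdr had the same signs as the receptors on each array. They had log2 ratios of 0.65, 0.54 and 0.88 on replicate 1 and of -0.05, -0.17 and -0.31 on replicate 2. With the length trend subtracted they had 0.48, 0.42 and 0.75 on replicate 1. Their summed signal was 37691 (control) and 60530 (cyclopamine) on replicate 1 and 11302 and 9832 on replicate 2. Acvrl1, an endothelial BMP receptor, did not share the rise on replicate 1, with ratios of -0.06 and -0.19. The part of endothelial cells in the receptor ratios was not tested.

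**Figure D3:**
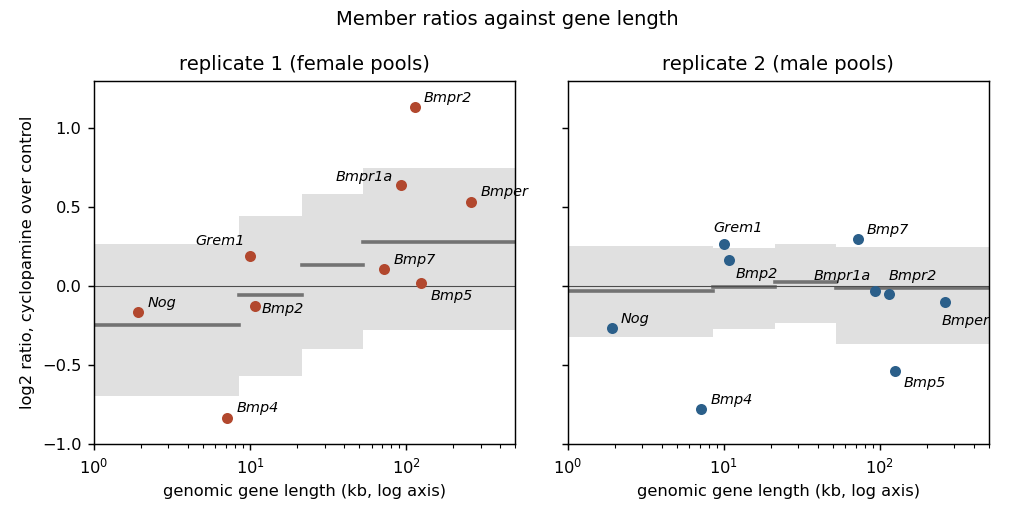
Log2 ratio of cyclopamine over control (y axis) against genomic gene length in kb (x axis, log scale) for the 9 genes, on replicate 1 (left) and replicate 2 (right). Grey boxes span the 10th to 90th percentile of the tested genes in each length class and the dark lines their medians, which climb from -0.25 to 0.28 on replicate 1 and stay near 0 on replicate 2. Bmp4 lies below the box on both arrays and Bmpr2 above it on replicate 1.

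Grem1, the secreted antagonist gremlin, was close to background. Its signals were 32.8 (control) and 37.4 (cyclopamine) on replicate 1 and 6.32 and 7.59 on replicate 2, where 2 of 4 spots were above background in the control channel and 3 of 4 in the other. The ratios of 0.19 and 0.26 differed by little, but the 4 spots on replicate 2 ran from -0.60 to 0.90. The SD between arrays (mean 0.23 ± 0.05, SD, n = 2; limma adjusted p 0.791) was thus small beside the spread of the spots.

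Nog, which encodes the antagonist noggin, had signals of 179 and 160 on replicate 1 and 33.4 and 27.8 on replicate 2. It was somewhat lower with cyclopamine on both arrays, with ratios of -0.17 and -0.27 and a mean of -0.22 ± 0.07 (SD, n = 2; limma adjusted p 0.806). Its spots overlapped those of a level gene on replicate 1, where they ran from -0.43 to -0.01. With the length trend subtracted the ratios were 0.20 and -0.22, so the shared direction of Nog depended on that trend.

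Bmper, a secreted BMP-binding protein that can inhibit or favor signaling and is named for its expression in endothelial precursors, ran with the receptors. Its signals were 6944 (control) and 10059 (cyclopamine) on replicate 1 and 1789 and 1671 on replicate 2. The ratio was 0.53 on replicate 1, just under 1.5-fold, and -0.10 on replicate 2. The mean was 0.22 ± 0.45 (SD, n = 2; limma adjusted p 0.806). With the length trend subtracted the ratios were 0.25 and -0.06.

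The remaining genes of the pathway were read from lists by role. By limma, 0 genes of any BMP list were called, and Bmp4 was the only one past the 1.5-fold filter. Single genes below are examples chosen after their values were seen. Over all tested genes the median of the mean log2 ratio was -0.01. Of these genes, 28.9% were lower on both arrays, 28.6% were higher on both and 42.4% were opposite, the shares to set beside the counts below.

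Of 15 BMP and GDF ligands, 9 were bright enough to test. Lower on both arrays was 1 (Bmp4), higher on both were 5 (Bmp3, Bmp7, Bmp8a, Bmp8b and Gdf10), and the median was 0.06. Gdf10, a distant relative of BMP3, had ratios of 0.69 and 0.24 (limma adjusted p 0.518). Of Bmp10, Bmp15, Gdf2, Gdf5, Gdf6 and Gdf7, each was too dim to test.

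All 7 BMP receptors were tested, and by brightest probe 5 of them had opposite signs on the arrays, as Bmpr1a and Bmpr2 did. Their median was 0.37 on replicate 1 and -0.05 on replicate 2, where all genes of the longest length class had 0.28 and -0.01. The receptor median of the mean log2 ratio was 0.08, and -0.04 with the length trend subtracted. By brightest probe, Acvr2a, a type II receptor shared with activins, was the only receptor higher on both (0.60 and 0.25). Acvrl1, the endothelial type I receptor also called ALK1, was the only receptor lower on both (-0.06 and -0.19). By another tested probe, Acvr2b was higher on both (1.36 and 0.30, limma adjusted p 0.0657). For Acvr1, another tested probe was lower on both (-0.44 and -0.04), while a further one was opposite (0.31 and -0.21). Among 4 co-receptors tested of 6, Tgfbr3 (betaglycan) had ratios of 1.02 and 0.25 (limma adjusted p 0.240), and the other 3 had opposite signs by brightest probe. For Rgmb, 1 of these 3, another tested probe was lower on both arrays (-0.41 and -0.29).

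Of 19 antagonists and modulators, 16 were tested, with 7 lower on both arrays, 5 higher on both and 4 opposite, and a median of -0.05. Nbl1, an antagonist of the DAN family, had nearly equal ratios of -0.50 and -0.50 (limma adjusted p 0.448). Sostdc1, opposite by its brightest probe, was lower on both by another (-1.17 and -0.06). Antagonists thus lay on both sides of 0.

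Of 6 processing enzymes, which cut ligand precursors or chordin, 5 were tested, and 3 (Bmp1, Furin and Pcsk6) were higher on both arrays, with a median of 0.09. By another probe Pcsk5 was higher on both too (0.55 and 0.40), while another probe of Bmp1 had opposite signs (0.52 and -0.04). Among the 4 SMAD transducers, Smad1, Smad5 and Smad4 had opposite signs by brightest probe, and Smad9 was lower on both (-0.36 and -1.01, limma adjusted p 0.176). Other tested probes were higher on both for Smad5 (0.36 and 0.22) and Smad4 (0.79 and 0.04). For Smad1, another probe was slightly lower on both (-0.05 and -0.03).

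Most BMP response genes were lower on both arrays before the length trend was removed. All 11 were tested, and 9 were lower on both arrays, where 28.9% of all tested genes were. None was higher on both and 2 (Hey1 and Gata6) were opposite, with a median of -0.19. Id1, an inhibitor of helix-loop-helix transcription factors and a direct SMAD target, had ratios of -0.91 and -0.43 (limma adjusted p 0.182). Id2 had -0.30 and -0.77 and Id3 -0.50 and -0.36. With the length trend subtracted, 6 of the 11 were lower on both arrays, 1 (Hey1) was higher on both and 4 (Id2, Id4, Msx2 and Gata6) were opposite. Among the 16017 tested genes with a length, 27.1% were then lower on both. Id1 kept its sign, with -0.50 and -0.37, while Id2 had 0.05 and -0.73. None of the 11 was called by limma or passed the filter. At an unadjusted limma p under 0.05 there were 2 (Id1 and Id2), both lower. Of all 25975 tested probes, 1161 were lower and 1279 higher at that limit. The SHH targets, with a median of -1.15, lay farther down.

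**Figure D4:**
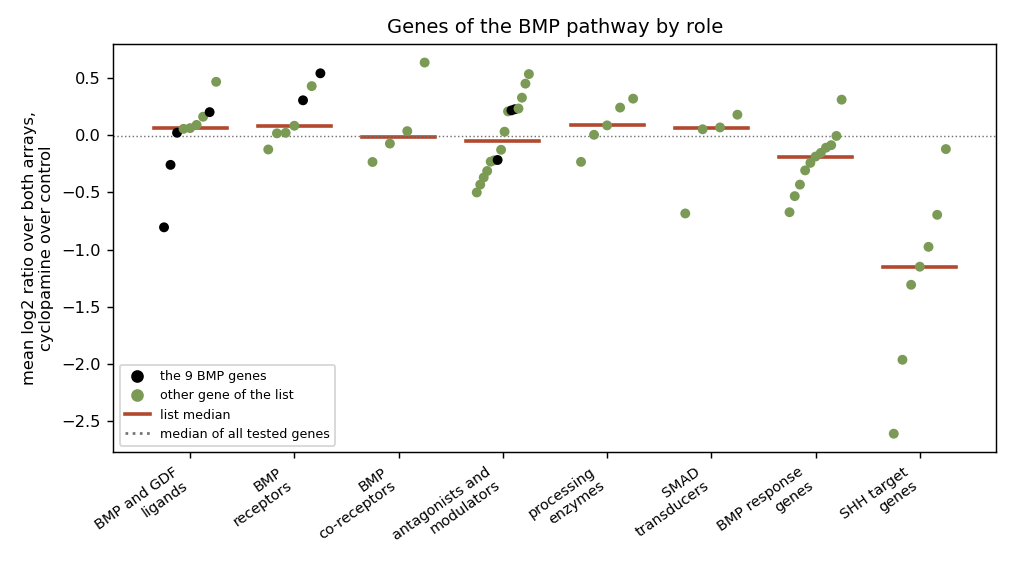
Mean log2 ratio of cyclopamine over control over both arrays (y axis) for the tested genes of each list (x axis), sorted within a list. Black points are the 9 BMP genes, green points other genes, red bars list medians, and the dotted line the median of all tested genes at -0.01. BMP ligands, receptors and antagonists have medians between -0.05 and 0.08, the BMP response genes -0.19 and the SHH target genes -1.15.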

How the data were processed

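The authors made the files with Agilent Feature Extraction (version 12.2.0.7 per the file headers, 10.7.3.1 in the processing notes of the submitters), which background-subtracted, detrended and dye-balanced each processed intensity. The authors' deposited log10 ratio, red over green, was used to check the dyes. The authors' series table holds a score, a signed linear fold change rounded to 1 decimal, used as an alternative. Flags for background and outliers are those the authors deposited.

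Outlier-flagged spots (2.89% and 3.15%) were left out, no spot was saturated, and the other spots of a probe were averaged as log2 intensity. Both arrays were turned to cyclopamine over control. The probe of a gene brightest over the 4 channels was used. Probes with a share of 0.5 or more spots above background in the same group on both arrays (25975 of 39429) were tested with limma 3.58.1 in R 4.3.3, with no intercept and 1 residual degree of freedom. The number of arrays limits the precision. Gene names and lengths came from RefSeq (GRCm38.p6), which matched all 9 genes. On simulated ratios over 25975 probes, 200 probes were given changes larger than the mean ratio of Bmp4. Of these, 100% were called, with 11 false calls. How often limma would call a mean ratio of the size of that of Bmp4 was not tested. Each array holds a matched pair of pools, so the pairing is part of the ratio, and a fit of 4 separate channels was the unpaired alternative. The ratios of the arrays correlated at 0.24 (Pearson, across genes). All 9 genes with all their probes were named, as were listed pathway genes past a threshold, the SHH targets and the 3 genes nearest to Bmp4, and other examples were picked after their values were seen. The 9 genes and the lists were chosen with earlier results of these data known.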

Additional observations from a re-analysis of the deposited data

Results flagged for a closer look

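For 5 of the 9 genes the log2 ratios of the female and the male pools had opposite signs. For some of them 1 ratio was near 0, namely 0.018 for Bmp5 in the female pools, and -0.031 for Bmpr1a and -0.050 for Bmpr2 in the male pools. The log2 ratio of the female pools minus that of the male pools was -0.29 for Bmp2, 0.55 for Bmp5, 0.67 for Bmpr1a, 1.18 for Bmpr2 and 0.63 for Bmper. With 1 array per sex, these differences were not tested, and sex, dye orientation and replicate cannot be told apart. Opposite signs were found for 42.4% of all tested genes.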

How the results depend on the processing

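Bmp4 was lower in all 10 alternative fits (mean log2 ratio -0.81 to -0.69) and passed the 1.5-fold filter in every alternative run except a 2-fold limit. Its limma adjusted p ranged from 0.0204 to 0.984. It was under 0.05 with outlier spots kept (-0.80, 0.0488), the length trend removed (-0.69, 0.0431), a filter on all 4 channels (-0.80, 0.0482) or an intensity trend in the prior (-0.80, 0.0204), and 0.984 without pairing by array (no replicate block). No other gene of the 9 was called in any fit. Leaving out 1 array gave -0.12 to 0.17 for Bmp2, -0.54 to 0.018 for Bmp5, -0.031 to 0.64 for Bmpr1a, -0.050 to 1.13 for Bmpr2 and -0.10 to 0.53 for Bmper, so their signs rest on 1 array.

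Against 200 probes lower and 118 higher (37.1% higher), limma gave 42 and 12 (22.2% higher) with a normexp offset of 50, 125 and 55 with an offset of 10, 242 higher with the length trend removed, 216 higher with no dim filter, 0 and 1 without the replicate block (292 and 267 at an unadjusted p under 0.05), and 0 and 0 on the series table (818 and 1051 unadjusted). The filter passed 55 lower genes at a control signal over 200, 20 lower and 3 higher at 2-fold, 180 and 141 on the mean log2 ratio, and 229 to 1180 lower and 80 to 1161 higher on 1 array alone. The series table gave 3358 genes lower and 3430 higher on both arrays. With the length trend removed, list medians were 0.019 for ligands, 0.040 for antagonists and -0.15 for response genes. On 1 array alone they were 0.045 to 0.068 for ligands, 0.092 to 0.17 for co-receptors (against -0.02 for the mean of both), -0.12 to -0.086 for antagonists, 0.065 to 0.18 for processing enzymes and -0.18 to -0.13 for response genes. Where no value above shows the cause of a shift, the cause was not tested. Signal limits Grem1 and Nog.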
